A study of Mus musculus with 3 samples.

Results

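The regions described here are 2502 pairs of overlapping 5-methylcytosine (5mC) peaks that stood late in the Sham peak list and early in the TAC peak list. They were drawn from the 87116 autosomal pairs in which 1 Sham peak and 1 TAC peak overlapped by at least 1 bp and neither overlapped another peak of the other list. Members were chosen by row position. A pair entered when its Sham peak lay beyond fraction 0.5 of the Sham rows and its TAC peak lay within the first 0.2 of the TAC rows. The 2502 members were 2.87% of the pairs, and the mirror set, with the thresholds exchanged between the lists, was 1130 pairs or 1.30%. The list positions chose the members, so their ranks, tag numbers and widths are given as a description, with no test.

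5mC was measured by methylated DNA immunoprecipitation and sequencing (MeDIP-seq), in which an antibody to 5mC pulls down methylated DNA fragments. Both groups were cardiomyocytes isolated from the hearts of male C57Bl6/J mice aged 8 weeks. One group had Sham surgery (labelled Sham) and the other had 1 week of pressure overload (labelled TAC), with 1 library in each, so no difference below has a replicate check. Pooling of several animals is neither stated nor denied by the labels, and the purity of the isolates cannot be read from peaks of methylated DNA. An Input library served the authors' peak calling and was otherwise not analysed here.

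In mammals 5mC sits mostly on the cytosine of CpG dinucleotides, where DNA methyltransferases write it and TET enzymes oxidise it. Bodies of transcribed genes and repeats are usually methylated, while CpG-rich promoters of active genes are usually free of the mark. MeDIP-seq recovers fragments with several methylated CpGs, so a peak reports enriched methylated DNA and depends on CpG density as well as on methylation. In a mixture of cells, a stronger peak cannot tell more methylated molecules per cell from a larger share of cells that carry the mark.

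The share of members at annotated promoters could not be told from that of other pairs at this number. The RefSeq promoter table used (GRCm38.p6, the assembly that mm10 names) gives for each transcription start the 250 bases before it and the 50 after. The TAC peak of 21 members (0.839%, exact 95% interval 0.520 to 1.28) overlapped such a window. The shares were 1.02% of all pairs and 0.781% of the pairs as late in Sham but not early in TAC, both within the members' interval. The 22 windows at members held a median of 3 CpGs, and 4 of them (18.2%, 5.19 to 40.3) held at least 10, against 29.3% of the 1012 windows at any pair and 44.0% of all 31396 windows. With 22 windows the interval includes the share of all pairs. The 4 CpG-rich upstream stretches are printed here because they are the promoters that CpG-based control would concern most, 5′ to 3′ on the strand of the gene with each CG in capitals.
Setd6, chr8:95715663-95715912 (+): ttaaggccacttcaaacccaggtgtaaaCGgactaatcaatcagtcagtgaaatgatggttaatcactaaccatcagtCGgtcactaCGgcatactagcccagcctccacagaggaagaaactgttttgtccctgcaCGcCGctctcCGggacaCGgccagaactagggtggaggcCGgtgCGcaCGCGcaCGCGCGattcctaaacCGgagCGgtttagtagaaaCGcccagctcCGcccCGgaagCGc
Ube2e1, chr14:18331845-18332094 (-): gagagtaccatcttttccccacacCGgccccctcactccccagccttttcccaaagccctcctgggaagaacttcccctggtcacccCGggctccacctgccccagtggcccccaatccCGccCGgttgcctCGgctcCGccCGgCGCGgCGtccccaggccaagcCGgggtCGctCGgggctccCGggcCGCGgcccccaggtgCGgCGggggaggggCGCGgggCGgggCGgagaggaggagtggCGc
Gng7, chr10:81014926-81015175 (-): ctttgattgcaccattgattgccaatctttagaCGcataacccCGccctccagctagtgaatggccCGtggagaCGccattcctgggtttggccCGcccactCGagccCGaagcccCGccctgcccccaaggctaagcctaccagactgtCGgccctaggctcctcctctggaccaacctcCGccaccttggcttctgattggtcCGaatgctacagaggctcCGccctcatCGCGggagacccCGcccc
Zfp467, chr6:48445091-48445340 (-): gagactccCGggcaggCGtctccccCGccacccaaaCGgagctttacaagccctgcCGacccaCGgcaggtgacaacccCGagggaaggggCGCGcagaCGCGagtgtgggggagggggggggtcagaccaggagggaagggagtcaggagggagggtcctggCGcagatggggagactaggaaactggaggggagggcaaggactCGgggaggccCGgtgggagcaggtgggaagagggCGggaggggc
In these 4 genes the peaks met the promoter to different extents, and they are shown for their CpG number after their values were seen. Setd6 encodes a lysine methyltransferase, Ube2e1 a ubiquitin-conjugating enzyme, Gng7 a G protein gamma subunit and Zfp467 a zinc finger protein. At Zfp467 the TAC peak (60 inferred tags, a number defined below) covered all 300 bases of the window, and the Sham peak (15 tags) did not reach it. At Setd6 the TAC peak (52 tags) covered 127 bases of the window and the Sham peak (11 tags) none. At Gng7 the TAC peak (53 tags) covered 91 bases and the Sham peak (16 tags) none. At Ube2e1 the order was the other way, with 25 bases under the TAC peak (56 tags) and 82 under the Sham peak (17 tags). The window thus lay at the edge of the peaks at Setd6, Gng7 and Ube2e1 and inside the TAC peak at Zfp467.

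The remaining 18 windows held 0 to 9 CpGs. From them 2 are printed in which the TAC peak covered the whole window while the Sham peak did not reach it. The same held at Gm38137 and Gm20268, which are not printed. The 2 printed windows were picked after their values were seen, and both belong to genes without an assigned function.
D430001F17Rik, chr16:91953760-91954009 (+): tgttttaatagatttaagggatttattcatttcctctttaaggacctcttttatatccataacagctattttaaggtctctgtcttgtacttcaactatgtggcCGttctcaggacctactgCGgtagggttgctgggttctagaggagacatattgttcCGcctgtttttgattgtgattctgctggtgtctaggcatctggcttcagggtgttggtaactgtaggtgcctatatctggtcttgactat
Gm46287, chr11:72765233-72765482 (+): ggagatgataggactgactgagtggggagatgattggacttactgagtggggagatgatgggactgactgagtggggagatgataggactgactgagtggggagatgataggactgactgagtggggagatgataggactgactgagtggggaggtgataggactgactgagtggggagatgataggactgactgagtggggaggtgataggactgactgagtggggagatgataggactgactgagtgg
The D430001F17Rik window held 3 CpGs, under a pair with 10 Sham and 58 TAC tags. The Gm46287 window held none and lay within a tandem repeat. The motif ACTGACTGAGTGGGGAG occurred 8 times in its printed stretch, and of the 31396 windows, searched on both strands, this was the only 1 that held it (0.0032%). The pair there had 14 Sham and 96 TAC tags, and its TAC peak of 2518 bp, one of the widest among members, lay with its midpoint in Ankfy1.

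Of the 2502 members, 2 overlapped a miRNA hairpin, compared with 33 of all 87116 pairs. A count of 2 is too small to tell the members' share from that of all pairs. The mature sequences of these 2 hairpins are printed with the seed, bases 2 to 8, in capitals.
mmu-miR-99a-5p: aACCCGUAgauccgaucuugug
mmu-miR-99a-3p: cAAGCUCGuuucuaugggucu
mmu-miR-7658-5p: uGUGGGCGuggcggugcugg
mmu-miR-7658-3p: aCCACCUUccucacccacgcu
The 4 seeds differ from each other. The Mir99a hairpin lies on chromosome 16 at 77598936 to 77599000, on the plus strand. The Sham peak there (77598295 to 77598795, 16 tags) stopped short of it, and the TAC peak (77598196 to 77598988, 51 tags) reached over the whole of the 5p arm. Mir7658 lies within Klhl17 on chromosome 4 at 156230059 to 156230115, on the minus strand, inside a TAC peak of 53 tags and outside the Sham peak of 10 tags. In both cases the hairpin was reached by the wider TAC peak alone.

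The lists carry no signal per peak, and the rank was read from the order of rows. The Sham list had 135886 peaks from 12585289 tags, and the TAC list 162107 peaks from 14658177 tags, with 29.9% and 34.7% of the tags in peaks, per the file headers. Rows ran in blocks sorted by position within a block, and counting 1 tag fewer from block to block, down to 8 in the last, gave an inferred tag number for each peak. These numbers sum to 99.3% of the tags in peaks in both libraries. The sum depends on the 8, which was fixed for the purpose, so it is no independent check. No source used here states this reading. It placed the Sham peak of 84 members (3.36%) under the header's threshold of 11 tags. Values are also given per 10000000 tags of each library. Ranks in lists of different lengths are not a measure of change, so the scaled tags are printed beside them.

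**Figure D1:**
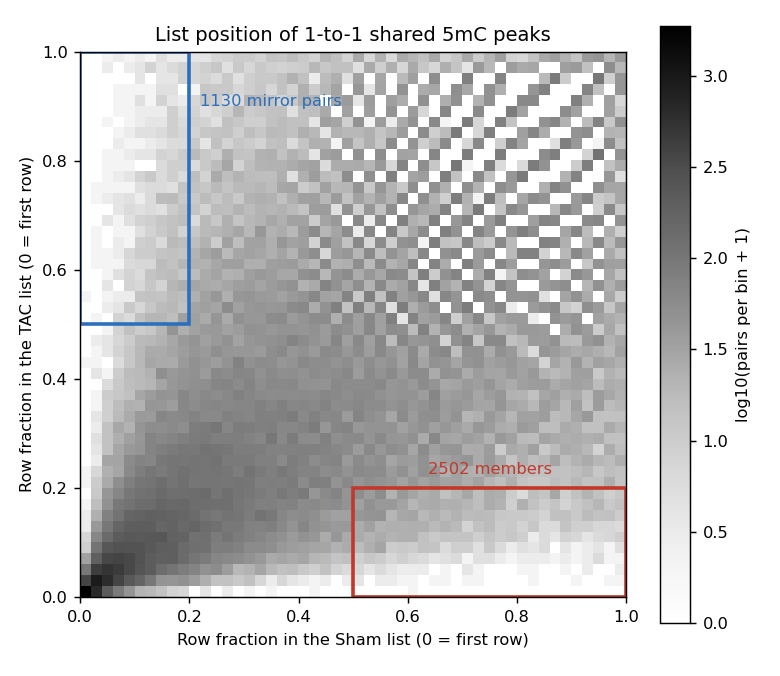
Row fraction of each 1-to-1 pair in the Sham list (x axis) and in the TAC list (y axis), with darker bins holding more pairs (log10 scale). Most pairs lie near the diagonal, the 2502 members fill the lower right box and the 1130 mirror pairs the upper left, and the stripes at high fractions come from rows sorted by position within blocks of equal inferred tag number.

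Members paired a weak Sham peak with a stronger TAC peak. Their Sham peaks had a median of 15 inferred tags (interquartile range 13 to 17, range 8 to 18) and their TAC peaks 47 (43 to 53, range 40 to 143). Scaled to depth the medians were 11.9 and 32.1 per 10000000, and the median ratio within a pair was 2.88 (interquartile range 2.45 to 3.37, range 1.91 to 8.87). Over all pairs the median ratio was 1.07. Scaled tags were at least 2-fold higher in TAC in 9.17% of all pairs and at least 2-fold higher in Sham in 5.00%. Every member had more scaled tags in TAC than in Sham, which the thresholds fix, since they correspond to at most 14.3 per 10000000 in Sham and at least 27.3 in TAC.

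The thresholds fell inside blocks of equal tag number. Just inside the Sham threshold lay pairs on chromosome 7 at 142190930 to 142191430 (18 Sham and 61 TAC tags) and on chromosome 8 at 8525832 to 8526332 (18 and 42). Just outside it lay pairs on chromosome 7 at 128504663 to 128505163 (18 and 45) and at 140155826 to 140156326 (18 and 48). At the TAC threshold the pair on chromosome 17 at 62286892 to 62287392 (14 and 40) and a pair in Gm36594 (12 and 40) were members, and a pair 430 kb from Wac (11 and 40) was not. At both limits, members and excluded pairs had the same tag number in the list whose threshold parted them, and only their place along the chromosomes differed there.

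**Figure D2:**
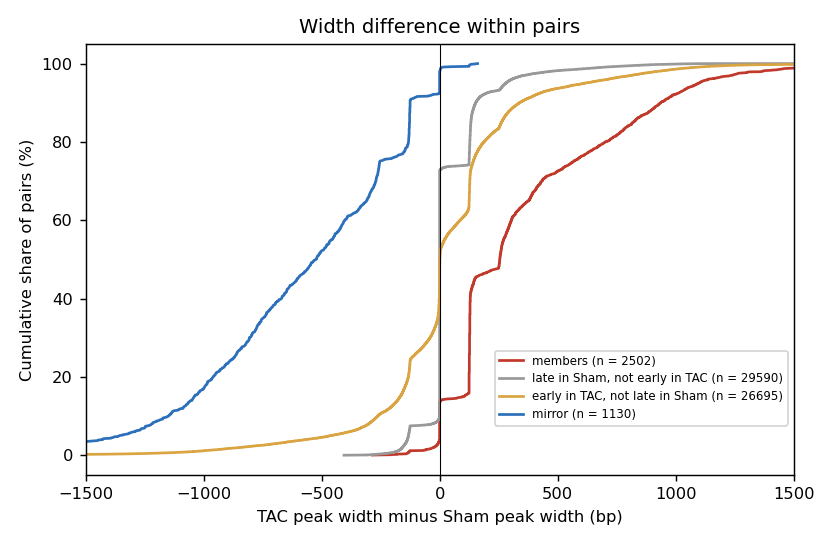
Cumulative share of pairs (y axis, %) against the width of the TAC peak minus that of the Sham peak (x axis, bp, cut at 1500 on both sides) for members, for the sets that share 1 of their thresholds and for the mirror set. Members lie to the right of 0, with a median of 255 bp, and the mirror pairs to the left, with a median of -522 bp.

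The TAC peak of a member was usually the wider of the pair. Members had a median width of 501 bp in Sham, the smallest the caller usually gave, and of 768 bp in TAC (interquartile range 628 to 1098). The TAC peak was wider in 2168 members (86.7%), of equal width in 239 and narrower in 95. The Sham peak lay wholly within the TAC peak in 1311 members (52.4%). The midpoints were a median of 94.0 bp apart (interquartile range 42.5 to 221). Tags per bp, which the choice by tag number favours, were also higher in TAC. Per bp of peak the scaled tags were higher in TAC in 2326 of the 2502 members (93.0%). The median ratio was 1.92 (1.46 to 2.38), against 1.05 over all pairs. In the 234 members with both peaks at 501 bp the median Sham peak had 15.0 tags (11.9 per 10000000) and the median TAC peak 43.0 (29.3 per 10000000). At equal width the thresholds fix this order. Wide TAC peaks, of 1000 bp or more, were found in 737 members (29.5%), close to the 28.8% among the other pairs early in TAC, and in 2.03% of the other pairs late in Sham.

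Overlap was slight in a few pairs. Less than 50% of the Sham peak was covered in 14 members (0.560%), and the shortest overlap was 3 bp, within Trappc9. Less than 50% of the TAC peak was covered in 710 (28.4%). When at least 50% of both peaks had to overlap, 1792 pairs met the rule and 526 its mirror.

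The 12 members with the largest difference in row fraction had 9 to 11 Sham tags and 59 to 102 TAC tags. The largest difference was at Gm7247, a gene without an assigned function, on chromosome 14 (Sham peak 51436304 to 51436804, TAC peak 51436266 to 51438501). It had 9 Sham tags (7.15 per 10000000) and 93 TAC tags (63.4 per 10000000), and its ratio of 8.87 was the highest among members. A pair 2.38 kb from Cxcr5, which encodes a chemokine receptor of B cells, had 10 tags in Sham over 501 bp and 102 in TAC over 1954 bp (chromosome 9, TAC peak 44528822 to 44530775). Within Sez6l the tags were 10 and 95, and within Kcnip1, which encodes a protein that binds potassium channels, 10 and 83. Within Mnat1, an assembly factor of the CDK-activating kinase, they were 10 and 72. Tmprss5, a membrane serine protease gene, had 9 and 60, and St6gal1, a sialyltransferase gene, 11 and 76. The other 5 were in Gm32561 (10 and 70) or outside genes, 31.6 kb from Actl9, 40.8 kb from Ddx18, 78.3 kb from Ddx11 and 86.1 kb from Ranbp3l. Sham values of 9 and 10 tags are below the header threshold, so the ratios of these pairs rest on the least certain part of the Sham list.

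Chosen after its value was seen, the member with the most TAC tags lay outside genes on chromosome 3, 40.8 kb from Rpl22l1, with 15 tags in Sham (28848516 to 28849016) and 143 in TAC (28848179 to 28849410). The widest TAC peak of a member, 2919 bp, lay in Sh3gl3 on chromosome 7 (16 and 80 tags, TAC peak 82252280 to 82255198). Ulk4, a kinase-like gene, held one of 2525 bp (15 and 52 tags). Breadth and tag number were therefore not ranked alike.

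Members lay outside genes more often than pairs of like rank. A midpoint within an annotated RefSeq gene was found for 1098 members (43.9%, exact interval 41.9 to 45.9). Among the 29590 pairs as late in Sham but not early in TAC the share was 50.9% (50.3 to 51.5), and among the 26695 pairs as early in TAC but not late in Sham it was 55.9% (55.3 to 56.5). The mirror set stood at 69.3% (66.5 to 72.0) and all pairs at 54.8%. The member interval overlapped none of the others. The sets were not matched on TAC rank, and the median TAC row fraction was 0.152 in members and 0.090 in the other pairs early in TAC. Intervals cover counting error only, and neighbouring peaks are not independent. The difference lay in protein-coding genes, which held 35.6% of members (33.7 to 37.5) against 41.7% of the pairs late in Sham. Genes for long non-coding RNA alone held 7.79% (6.77 to 8.91) against 8.30%, a difference within counting error.

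The lower share in genes was seen at each level of Sham rank. For Sham row fractions from 0.5 to 0.6, 45.8% of members and 52.5% of non-members were in genes. From 0.6 to 0.7 the shares were 44.4% and 51.6%, and from 0.7 to 0.8 they were 45.0% and 51.7%. From 0.8 to 0.9 they were 38.6% and 50.5%, and above 0.9 they were 40.1% and 47.0%. Members with both peaks at 501 bp had a share of 46.2% (39.6 to 52.8), an interval that includes the 50.9% of the pairs late in Sham.

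**Figure D3:**
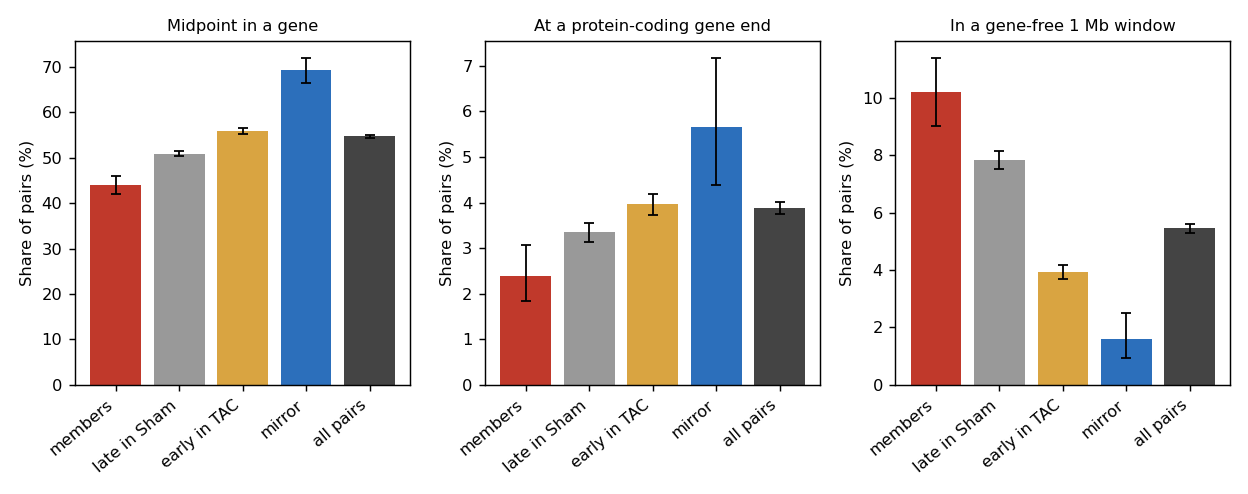
Share of pairs (y axes, %) with the midpoint in a gene, with the TAC peak at a protein-coding gene end, and in a 1 Mb window without a protein-coding gene, for members, the sets that share their Sham or their TAC threshold, the mirror set and all pairs. Bars start at 0 and whiskers are exact 95% intervals of counting error, and members are the lowest in the first panels (43.9% and 2.40%) and the highest in the last (10.2%).

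Gene ends were also covered less often. The TAC peak of 60 members (2.40%, 1.83 to 3.08) came within 1000 bp of the annotated start or end of a protein-coding gene. The shares were 3.35% (3.14 to 3.56) of the other pairs late in Sham and 5.66% (4.39 to 7.18) of the mirror pairs. Sham peaks were not counted. TAC peaks had a median width of 768 bp in members and 766 bp in the other pairs early in TAC. It was 501 bp in the other pairs late in Sham and in the mirror pairs. With a fixed 501 bp at the TAC midpoint the shares were 1.88% of members and 3.24% of the other pairs late in Sham. By level of Sham rank the member interval lay below the non-member share only from 0.6 to 0.7 (1.90%, 0.952 to 3.37, against 3.68%). At the other levels it included that share, as from 0.5 to 0.6 (2.52%, 1.62 to 3.72, against 3.40%). The annotation table has no strand, so starts and ends were not told apart. The 12 with the largest difference in row fraction had 10 to 13 tags in Sham and 40 to 83 in TAC. One lay within Pck1, which encodes the gluconeogenic enzyme phosphoenolpyruvate carboxykinase (chromosome 2, TAC peak 173157558 to 173158616), with 11 tags in Sham and 41 in TAC. Ibsp, the gene of bone sialoprotein, held a pair with 13 and 72 tags, and Msi1, an RNA-binding protein gene, one with 12 and 53. Clrn1, in which mutations cause hearing and vision loss, had a pair 0.797 kb away with 13 and 83 tags, the most TAC tags of the 12. Pairs near Acot5, an acyl-CoA thioesterase gene (11 and 41), Brk1, a WAVE complex subunit gene (12 and 50), and Lrrk2, a kinase gene (10 and 40), lay within 1 kb. Defb26, 4930579F01Rik, Klhl17, the Ly6g6d and Ly6g6e locus and the end between Ndrg4 and Setd6 made up the rest.

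**Figure D4:**
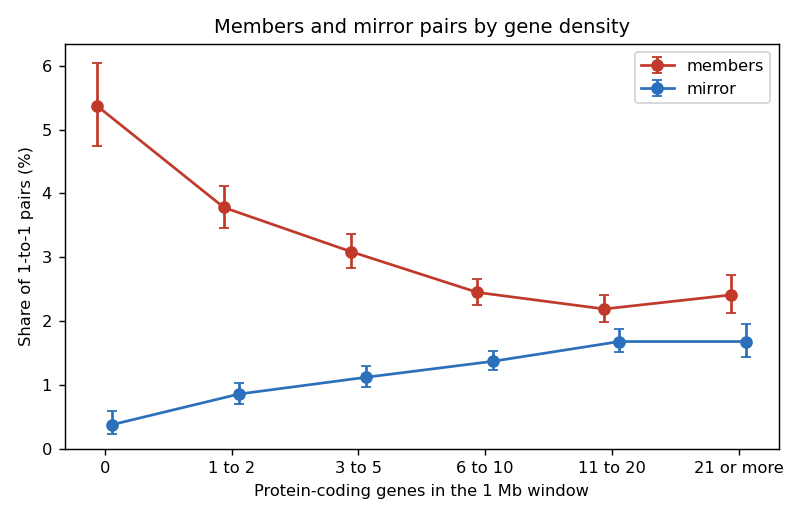
Share of 1-to-1 pairs (y axis, %) that are members or mirror pairs, by the number of protein-coding genes in the autosomal 1 Mb window of the pair (x axis), with exact 95% intervals of counting error. Members fall from 5.37% in windows without genes to 2.41% in windows with 21 or more, while mirror pairs run from 0.379% to 1.68%.

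Gene-poor parts of the chromosomes held the largest share of members. In 1 Mb windows without a protein-coding gene 5.37% of pairs (4.75 to 6.05) were members and 0.379% were mirror pairs. With 1 to 2 genes the shares were 3.78% and 0.858%, with 3 to 5 genes 3.09% and 1.12%, and with 6 to 10 genes 2.45% and 1.37%. With 11 to 20 genes they were 2.19% and 1.68%, and with 21 or more 2.41% (2.13 to 2.73) and 1.68%. Of the members, 255 (10.2%, 9.03 to 11.4) lay in gene-free windows, against 7.83% (7.53 to 8.14) of the other pairs late in Sham and 1.59% (0.947 to 2.51) of the mirror pairs. That TAC peaks in general were relatively more frequent where genes are few was known when the members were chosen. The members are part of those lists and are no independent support for it.

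The gradient differed with the set of pairs taken as the base. Among pairs late in Sham, members made up 9.91% in gene-free windows and 7.34% in windows with 21 or more genes, a narrower range than among all pairs. Among pairs early in TAC they made up 19.6% and 7.08%, a wider range. The lower share in genes was also found within most classes of gene number. In windows with 6 to 10 genes 48.9% of members were in a gene against 56.6% of the other pairs late in Sham, and with 21 or more genes 52.6% against 61.0%. In gene-free windows, which can hold non-coding genes and ends of long genes, the shares were 17.6% and 15.3%.

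The excess of members over mirror pairs depended on how ranks were scaled. As chosen, members outnumbered mirror pairs on 19 of 19 autosomes, by 1.52 to 3.06 times, and in gene-free windows by 14.2 times. When the TAC row number was divided by the number of Sham rows instead, 1618 pairs met the rule and 1720 met its mirror, so the order turned. The ratio was then 4.79 in gene-free windows, 1.09 in windows with 1 to 10 genes and 0.591 in windows with more than 10. The decline with gene number was present under both scalings, while the side with more pairs was not the same in gene-rich windows. By autosome, members ran from 2.13% of pairs on chromosome 2 to 3.90% on chromosome 8 (195 of 4995, 3.38 to 4.48). The rule bears on these shares, because it cut the blocks of 18 Sham and 40 TAC tags along the chromosomes. The 226 members with 18 Sham tags lie from the end of chromosome 7 onward. The 190 members with 40 TAC tags lie on chromosome 17 or before. Counts by window and by gene below are affected in the same way.

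Members were spread over many windows, most of them sharing a window with another member. Of the 1 Mb windows with any member, 836 held 1, 418 held 2, 163 held 3, 60 held 4, and 20 held 5 or more. Another member lay within 100 kb of 576 members (23.0%, 21.4 to 24.7), against 23.2% for the mirror pairs among themselves, though these are fewer. Within 500 kb the shares were 66.8% and 57.3%. Among all 1-to-1 neighbours within 5 kb of a member, 34 of 841 were members (4.04%), and within 500 kb it was 2.83%, near the 2.87% of all pairs. The windows with most members, named after their values were seen, were on chromosome 9 at 60000001 to 61000000 (6 of 75 pairs, 3 of them in Thsd4) and chromosome 19 at 20000001 to 21000000 (5 of 19 pairs, 26.3%, where Anxa1, Aldh1a1, Aldh1a7 and Tmc1 lie). On chromosome 11 at 81000001 to 82000000 all 5 members of 33 pairs were in Asic2.

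Within 20 kb, peaks found in 1 library only were more often TAC peaks around members than around the sets that share 1 of their thresholds. Within 20 kb of a member lay 3043 peaks of TAC alone and 2009 of Sham alone, so that 60.2% (58.9 to 61.6) were TAC peaks. Around the other pairs late in Sham the share was 57.1% (56.7 to 57.6), around the other pairs early in TAC 52.8%, and around mirror pairs 43.5% (41.8 to 45.3). Around all pairs it was 56.8%. The share also varied with gene number. It was 71.2% around members in windows with up to 2 genes and 52.8% in windows with more than 10, compared with 67.6% and 51.1% for the pairs late in Sham and 49.4% and 42.6% for mirror pairs. With more than 10 genes the member interval (50.2 to 55.3) included the share of the pairs late in Sham. Within 5 kb it did so too (59.5%, 56.5 to 62.4, against 56.6%). At 100 kb members no longer stood above the pairs late in Sham or all pairs, with 59.9% around members, 59.7% around the pairs late in Sham and 60.4% around all pairs. That 60.4% counts 68538 TAC and 45007 Sham peaks, most of the autosomal peaks found in 1 library only. The 60.2% within 20 kb of members was thus near the share among such peaks in general. The nearest other pair stood earlier in the TAC list than in the Sham list for 64.1% of members (62.2 to 66.0), for 61.9% of the pairs late in Sham and for 49.8% of mirror pairs.

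Most genes with a member had a single one. Members fell in 1040 genes, 785 of them protein-coding, of the 15570 genes with any pair. Of these, 945 held 1 member, 74 held 2 and 21 held at least 3. Protein-coding genes with a member had a median length of 130 kb, against 39.5 kb for those with any pair, and longer genes hold more pairs that could be chosen.

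The genes with 4 or 5 members were all longer than this median of 130 kb. Asic2, which encodes an acid-sensing ion channel, held 5 members among 36 pairs (chromosome 11, 80880163 to 81968396). Their Sham tags were 17, 14, 18, 16 and 17 and their TAC tags 52, 42, 56, 47 and 42. Lsamp, a neuronal adhesion protein gene, held 5 of 34, with Sham tags of 13, 18, 16, 12 and 11 and TAC tags of 56, 47, 54, 45 and 41. Sox5, which encodes an SRY-related transcription factor, held 5 of 58, with 12, 17, 17, 10 and 17 in Sham and 53, 50, 51, 41 and 60 in TAC. In none of these genes was every pair a member, and members were 8.62% to 14.7% of their pairs.

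Ctnna2, an alpha-catenin gene, held 4 members of 20 pairs, and Dpp10, whose product associates with potassium channels, 4 of 30. Gpc6, a glypican gene, held 4 of 46, with 1 pair at 17 and 87 tags, and Pcdh15, a protocadherin gene, 4 of 36. With 3 members each there followed the non-coding genes 1700019L22Rik (of 13 pairs) and A330033J07Rik (of 14), and Anks1b (of 47), Dip2c (of 7) and Galntl6, a glycosyltransferase gene (of 16). Dip2c had the highest share, 42.9% (9.90 to 81.6), with Sham tags of 12, 13 and 16 and TAC tags of 53, 41 and 74. Chosen after its values were seen, Rbm20, which encodes a splicing factor of titin in heart muscle, also held 3 of 7 pairs, with 18 tags each in Sham and 52, 47 and 52 in TAC. These Rbm20 pairs lay just inside the Sham limit (row fraction 0.521 in each).

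**Figure D5:**
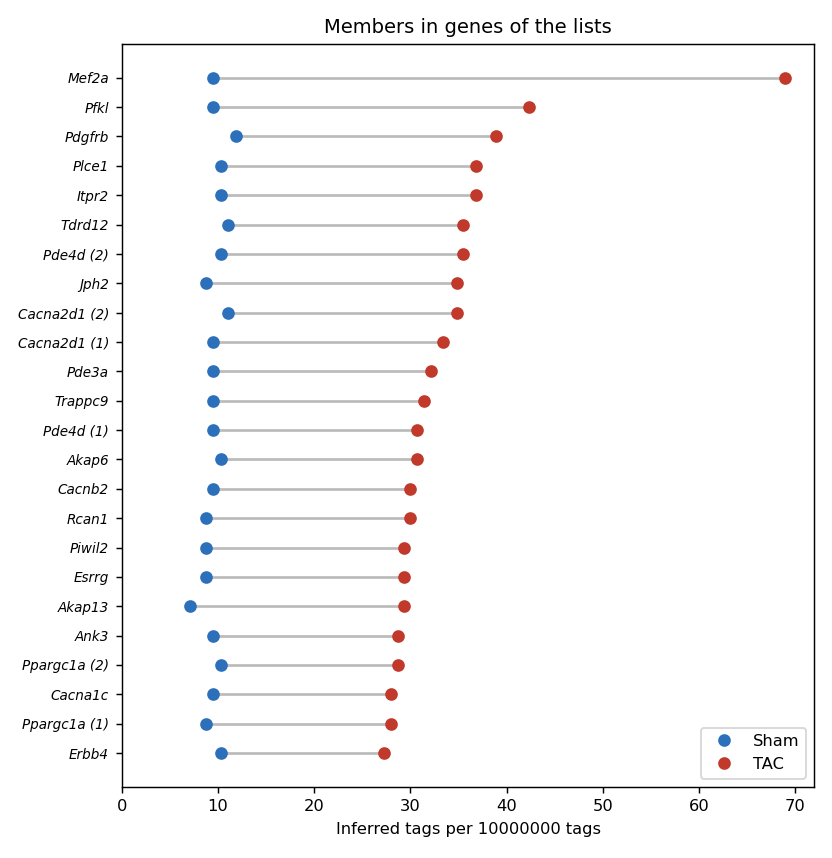
Inferred tags per 10000000 tags of the library (x axis) in Sham and in TAC for members in genes of the fixed lists with the largest differences in row fraction, with 1 line per pair (y axis). The pairs shown lie between 7.15 and 11.9 in Sham and between 27.3 and 68.9 in TAC, as the rule sets, with Mef2a farthest to the right.

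Genes of the lists fixed for heart muscle and other cells held members at shares whose intervals include that of all pairs in protein-coding genes, 2.26%. Of 17 lists of genes, 15 held at least 1 member and together they held 49, with 9 to 18 Sham tags and 40 to 101 TAC tags. Calcium handling genes held 11 members of 276 pairs (3.99%, 2.01 to 7.02), the most of the cardiac lists by share among lists with more than 2 members. The interval includes the 2.87% of all pairs. Over the 276 pairs the median ratio of scaled tags was 1.00, against 1.07 over all pairs and 1.01 over pairs in protein-coding genes. Sarcomere and Z-disc genes held 1 of 76 (1.32%). Cardiac transcription factor genes held 3 of 186 (1.61%), ion channel and gap junction genes 3 of 201 (1.49%), and hypertrophic signalling genes 15 of 590 (2.54%). Genes of fatty acid oxidation and mitochondrial regulation held 2 of 103 (1.94%), glucose use 1 of 35 (2.86%), and fetal and load-induced genes 1 of 20 (5.00%, 0.127 to 24.9).

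The 11 members in calcium handling genes lay in 9 genes. Cacna1c, the main L-type calcium channel gene of the ventricle, held 2 members, with 12 and 16 tags in Sham and 41 and 65 in TAC. Cacna2d1, an auxiliary subunit gene, also held 2, with 14 and 12 in Sham and 51 and 49 in TAC. Cacnb2, another subunit gene, had 12 and 44, Cacna1d 17 and 65, and the T-type channel gene Cacna1g 16 and 56. Jph2, which encodes junctophilin of the junction between T-tubule and sarcoplasmic reticulum, had 11 tags in Sham and 51 in TAC (chromosome 2, TAC peak 163344003 to 163345235). Itpr2, an inositol trisphosphate receptor gene, had 13 and 54, with a TAC peak of 2331 bp. Asph had 14 and 41, and Camk2d, which encodes the main cardiac CaM kinase II, 14 and 43. All 11 lay within gene bounds, and whether a pair lay in an exon or intron was not analysed here.

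Among the 49 members in listed genes, the most TAC tags were in Mef2a, which encodes a muscle transcription factor. Its Sham peak (chromosome 7, 67253967 to 67254467) had 12 tags and its TAC peak (67253737 to 67255503) had 101, which is 9.53 and 68.9 per 10000000, a ratio of 7.23 with a counting interval of 3.96 to 14.4. Esrrg, an oestrogen-related nuclear receptor gene, had 11 and 43, and Zfpm2, which encodes a GATA cofactor, 17 and 49. Ppargc1a, the gene of the mitochondrial coactivator PGC-1 alpha, held 2 members, with 13 and 11 tags in Sham and 42 and 41 in TAC. Pfkl, a phosphofructokinase gene, had 12 and 62, and Rcan1, whose product inhibits calcineurin, 11 and 44.

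The 15 members of the signalling list were in 12 genes. Akap13, an anchoring protein gene, had 9 and 43 tags, and Akap6, the gene of the nuclear envelope anchor mAKAP, 13 and 45. The phosphodiesterase gene Pde4d held 2 (12 and 45, 13 and 52) and Pde3a 1 (12 and 47). Plce1, a phospholipase C gene, had 13 and 54. Erbb4, the neuregulin receptor gene, held 2 (13 and 40, 16 and 55), as did Prkg1, the gene of cGMP-dependent kinase (16 and 55, 15 and 41). Igf1r, Plcb1, Prkca and Hdac9 held 1 each, at 14 to 18 Sham tags and 40 to 55 TAC tags. Members of the ion channel list included pairs in Ank3 (12 and 42) and Abcc9 (17 and 49).

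Lists for other cells and for other classes of genes are given for comparison. Fibroblast and matrix genes held 1 of 119 (0.840%), in Sparc. Endothelial genes held 3 of 136 (2.21%), smooth muscle and pericyte genes 2 of 89 (2.25%) and immune cell genes 2 of 77 (2.60%). Germline genes held 2 of 62 (3.23%), with 11 and 43 tags in Piwil2, a gene of the piRNA pathway, and 14 and 52 in Tdrd12. Imprinted genes held 2 of 149 (1.34%), in Trappc9 and in the overlap of Igf2r with Airn. DNA methylation machinery genes held 1 of 31, in Mbd5 (15 and 43). Homeobox and Polycomb target genes held 0 of 42 and housekeeping genes 0 of 7, counts that allow shares up to 8.41% and 41.0% by exact intervals.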

How the data were processed

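MeDIP-seq libraries of Sham and TAC cardiomyocytes (1 per group) were processed by the authors on mm10. The submitters' processing notes name BWA 0.7.4-r385, HOMER 4.5 and Picard. Peaks were called in each library against a shared input, with a peak size of 500 bp, at least 4-fold over input and a Poisson p-value of 1e-04, per the file headers. The headers also give a threshold of 11 tags in Sham and 12 in TAC. The lowest inferred tag numbers among pairs, 8 in Sham and 9 in TAC, lie below it, and the reason was not tested. The deposited score is 1 for every peak and was used for nothing. Start and end of the deposited peaks and the order of rows were used.

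Pairs, row fractions, inferred tag numbers, widths and positions were computed with Python 3.11.15, numpy 2.4.6, pandas 2.3.3 and scipy 1.17.1, and the pairing was tested on simulated lists. Genes and promoter and miRNA sequences came from RefSeq (GRCm38.p6). The promoter table is incomplete, so its counts cover the windows it holds. A pair was assigned to a gene by the midpoint of its TAC peak. Intervals are exact Clopper-Pearson 95% intervals and, like the limits for counts of 0, cover counting error only. With 1 library per group the libraries were not tested against each other.

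The members, the 17 gene lists and the comparisons were chosen with earlier results of these data known. Named by rule were the 12 members with the largest difference in row fraction, the 12 such members at protein-coding gene ends, up to 12 genes with at least 3 members, members in listed genes, pairs beside each threshold, members at promoter windows and the 6 widest TAC peaks. Other thresholds, overlaps, distances, window sizes and a common row count were tried as alternatives. Exons, introns and untranslated regions were not analysed here. Some members in listed genes and beside the thresholds are not reported here.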

Additional observations from a re-analysis of the deposited data

How the results depend on the processing

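Of 37 values computed under alternative settings, 16 stayed close to those reported and 21 moved. The order of members and mirror pairs turned under a common row count. The number of members was 182 with stricter limits (Sham above 0.6, TAC at most 0.1, with 90 mirror pairs), 9157 with looser ones (above 0.4, at most 0.3, with 5064 mirror pairs) and 1618 with the TAC row number over the number of Sham rows (1720 mirror pairs). The share in genes was 38.5% with stricter limits, 46.9% with looser ones and 46.2% for pairs with both peaks at 501 bp. The share at gene ends was 1.65% with stricter limits, 1.48% within 500 bp and 4.64% within 2000 bp. The share in gene-free windows was 8.44% with looser limits, 21.7% for windows of 500 kb and 2.76% for windows of 2 Mb. The median width difference was 732 bp with stricter limits, and 129 bp both with looser limits and with an overlap of at least 50%. The share with another member nearby was 5.44% within 20 kb, 66.8% within 500 kb, 0% with stricter limits and 57.9% with looser ones. The TAC share of peaks in 1 library was 58.5% with stricter limits and 58.3% with looser ones. Compared with the other pairs late in Sham, members were less often in genes in 8 of 8 settings, less often at gene ends in 7 of 7 and more often in gene-free windows in 6 of 6. The settings cut the same pairs of the same libraries anew, so they are not independent checks. The cause of these shifts was not tested. No paired analysis was possible because each group has 1 library, and none could be left out. Counts of 8 to 18 Sham tags limit the precision of any single pair.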

Other observations

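Chromosome X, which the rule leaves out, is present as a single copy in male cells. By the same limits 23 of its 953 pairs (2.41%, exact interval 1.54 to 3.60) stood late in Sham and early in TAC, and 9 (0.944%, 0.433 to 1.79) stood the other way. The intervals include the autosomal shares of 2.87% and 1.30%.

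Further genes outside the named rule held 3 members each, and some are given here. Sox6, which encodes a transcription factor related to Sox5, had Sham tags of 15, 11 and 12 and TAC tags of 41, 48 and 40 on chromosome 7. Ptprd, a receptor tyrosine phosphatase gene, had Sham tags of 14, 16 and 17 and TAC tags of 49, 42 and 40 on chromosome 4. Rbfox1, a splicing factor gene expressed in heart and brain, held 3 members among 100 pairs (exact interval of the share 0.623% to 8.52%), near the share of all pairs. These genes were chosen after their values were seen.

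Among the members with most TAC tags were pairs far from any protein-coding gene. One lay 391 kb from Kctd8 on chromosome 5 (11 Sham and 104 TAC tags), and another 309 kb from Cxadr on chromosome 16 (18 and 120). Others were nearer to genes or within them. A pair on chromosome 2 at 3050339 to 3051624, close to the start of the assembled sequence and 62.6 kb from Fam171a1, had 15 and 112 tags. A pair 97.4 kb from Tcf7l2 on chromosome 19 had 17 and 112, and a pair within Tafa2 on chromosome 10 had 17 and 109.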
